A study of Homo sapiens with 4 samples.

Results

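The amino acid transporters described here are the 44 genes of the count table whose symbol is SLC1A, SLC3A, SLC6A, SLC7A, SLC36A, SLC38A or SLC43A followed by a number. Membership was set by symbol alone, out of 17791 genes, though the families were chosen with earlier results of these data known. The 44 genes were measured by bulk RNA sequencing on day 15 in engineered tissues. These were made by setting human prostate cancer cells in a hydrogel of poly(ethylene glycol) and fibrinogen. The 4 groups were LNCaP cells with BJ-5ta fibroblasts at 5 cancer cells to 1 fibroblast, PC-3 cells with BJ-5ta fibroblasts at the same ratio, LNCaP cells alone and PC-3 cells alone. They are called here the LNCaP coculture, the PC-3 coculture, the LNCaP monoculture and the PC-3 monoculture. LNCaP is an androgen-responsive prostate cancer line and carries the label ADPC. PC-3 is an androgen-independent line that carries the label CRPC-ne, and BJ-5ta is a line of normal skin fibroblasts immortalized with telomerase. No treatment was given. Each cancer type is 1 established line, so a difference between these lines cannot be told apart from one between their disease types. The labels describe the culture medium of the PC-3 tissues and say nothing separate for the LNCaP tissues, and they do not say which of the hydrogel stiffnesses was sequenced. Each group has 1 library. The design text gives n > 2, and whether a library combined RNA of several tissues is not clear. There is thus no spread between tissues and no test. Every interval given is a 95% counting interval.

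Cells take up amino acids through carriers that differ in substrate and in driving force. Exchangers such as SLC7A5 (LAT1) and SLC7A8 (LAT2) swap large neutral amino acids across the membrane and reach the surface only when bound to the heavy chain SLC3A2 (4F2hc). Sodium-coupled carriers of the SLC1, SLC6 and SLC38 families concentrate glutamine, alanine, glutamate and glycine inside the cell, and SLC43 carriers let leucine and its relatives move down their gradient. In prostate tissue, uptake of leucine is known to feed growth signalling through mTORC1.

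SLC7A5, SLC7A8 and SLC43A1, carriers of large neutral amino acids that differed strongly between the lines, have promoters that are shown to give the sequence context of those differences. RefSeq on GRCh38.p14 gives a window of 300 bases, from 250 before to 50 after a listed start, for 34 of the 44 members, in 56 windows. Shown 5′ to 3′ on the gene's strand, which is minus for all 3, are SLC7A5 at chr16:87869458-87869757, SLC7A8 at chr14:23183611-23183910 and SLC43A1 at chr11:57515653-57515952. Capitals mark an E-box, CACGTG, the hexamer read by MYC and related factors, or an antioxidant response element, TGACNNNGC, read by NRF2.
SLC7A5: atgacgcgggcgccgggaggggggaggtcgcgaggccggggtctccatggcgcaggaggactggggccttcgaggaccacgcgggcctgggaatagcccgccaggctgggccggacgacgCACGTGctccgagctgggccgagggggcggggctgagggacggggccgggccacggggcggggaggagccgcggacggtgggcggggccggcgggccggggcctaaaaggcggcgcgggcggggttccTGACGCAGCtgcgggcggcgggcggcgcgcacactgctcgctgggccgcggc
SLC7A8: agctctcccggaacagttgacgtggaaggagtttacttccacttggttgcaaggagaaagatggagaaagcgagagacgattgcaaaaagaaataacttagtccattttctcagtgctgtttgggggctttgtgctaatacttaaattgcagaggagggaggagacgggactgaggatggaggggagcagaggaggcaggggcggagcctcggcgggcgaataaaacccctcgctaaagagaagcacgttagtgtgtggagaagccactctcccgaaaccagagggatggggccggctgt
SLC43A1: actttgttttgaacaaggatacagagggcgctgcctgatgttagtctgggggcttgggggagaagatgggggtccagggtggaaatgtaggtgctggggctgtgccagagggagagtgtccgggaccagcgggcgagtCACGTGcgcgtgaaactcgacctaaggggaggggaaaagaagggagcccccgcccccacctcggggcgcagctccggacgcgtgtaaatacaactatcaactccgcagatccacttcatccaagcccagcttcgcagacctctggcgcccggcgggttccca
The E-box starts 130 bases before the listed start in SLC7A5 and 112 bases before it in SLC43A1, and the SLC7A5 window has TGACGCAGC starting 2 bases before the start. Neither motif is in the SLC7A8 window, which is that of the farthest upstream of 4 listed starts, though another of its windows holds an E-box. The GC content is 80.3% in SLC7A5, 53% in SLC7A8 and 61.7% in SLC43A1, against a median of 58.7% over all 35114 windows. Searched on both strands, the E-box was in 10 of the 56 member windows (17.9%) and in 7.26% of all windows. The antioxidant element was in 7 of 56 (12.5%), against 13.3% of all windows. The C/EBP-ATF element that ATF4 reads under amino acid shortage, TGATGNAAN, was in 6 of 56 (10.7%), against 3.61% of all windows, in SLC1A3, SLC1A4, SLC1A5, SLC38A1, SLC3A2 and SLC7A1. Counts per gene do not say which start the cells used, and a match is a description of letters.

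The libraries held 15520243 counts in the LNCaP coculture, 15687894 in the PC-3 coculture, 15860981 in the LNCaP monoculture and 15865690 in the PC-3 monoculture. The 15 fibroblast markers, COL1A2, COL6A3 and MMP2 among them, summed to 959.3 CPM in the LNCaP coculture and 600.7 CPM in the PC-3 coculture, against 2.03 CPM in the LNCaP monoculture and 92.7 CPM in the PC-3 monoculture. POSTN was at 0 in the LNCaP coculture. In the LNCaP monoculture COL1A2, PDGFRA, DCN, LUM, FAP, TWIST2, MMP2 and POSTN were at 0, and in the PC-3 monoculture THY1, MMP2, TIMP3, CD248 and POSTN. The PC-3 monoculture, which has no fibroblasts, held FBLN1 at 41.5 CPM, COL6A3 at 37.3 CPM and PDGFRA at 11.7 CPM. In PC-3 tissue these genes therefore do not mark fibroblasts alone. The LNCaP and androgen-regulated list summed to 11857 CPM in the LNCaP coculture and 459 CPM in the PC-3 coculture, and to 9641 CPM in the LNCaP monoculture and 504.7 CPM in the PC-3 monoculture, with KLK3 and KLK2 at 0 in both PC-3 libraries. All 6 epithelial markers were above 1 CPM in every library. Of the 4 PC-3 markers in the table all were at least 2-fold higher in the LNCaP coculture than in the LNCaP monoculture. CAV1 was at 19.1 CPM in the LNCaP coculture and 0 in the LNCaP monoculture. Between the PC-3 coculture and monoculture 0 of the 4 were called. The cocultures also hold fibroblast RNA, and which cells gave these reads was not tested. Endothelial markers were mixed, with KDR at 0 in both LNCaP libraries, at 163 CPM in the PC-3 coculture, and at 168 CPM in the PC-3 monoculture. Of the blood and immune markers, CD68 was at 15.8 CPM in the LNCaP coculture, 56.7 CPM in the PC-3 coculture, 4.24 CPM in the LNCaP monoculture and 42.5 CPM in the PC-3 monoculture.

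Levels are given as CPM, the count per 1000000 of the scaled library total, and CPM per kilobase of exon where genes are set beside each other. Of the 44 members, 22 reached 20 CPM in some library, 9 reached 1 CPM but not 20, and 13 stayed under 1 CPM in all 4. Summed, the members held 2145 CPM in the LNCaP coculture, 3453 CPM in the PC-3 coculture, 2093 CPM in the LNCaP monoculture and 3100.1 CPM in the PC-3 monoculture. Per kilobase of exon, the highest level in both LNCaP libraries was that of SLC6A8, the creatine carrier, at 155 CPM per kilobase in the LNCaP coculture and 176 in the LNCaP monoculture. In both PC-3 libraries it was that of SLC38A2, a sodium-coupled carrier of alanine, serine and glutamine, at 168 CPM per kilobase with fibroblasts and 158 without them. SLC3A2 came next in the LNCaP coculture (65.5 CPM per kilobase), in the LNCaP monoculture (59.9) and in the PC-3 coculture (93.5). In the PC-3 monoculture SLC6A8 and SLC3A2, at 77.1 and 77.0 CPM per kilobase, were within each other's counting intervals. Farther down, SLC1A5 and SLC38A10 were within each other's intervals in the LNCaP coculture at 32.4 and 31.8 CPM per kilobase, as were SLC1A5 and SLC38A1 in the PC-3 coculture at 51.9 and 51.2. The exon length used sets part of this order. Per kilobase of coding sequence, an alternative chosen after seeing the data, SLC6A8 and SLC38A2 kept the first place, and SLC3A2 had rank 3 in both LNCaP libraries and rank 6 in both PC-3 libraries.

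**Figure D1:**
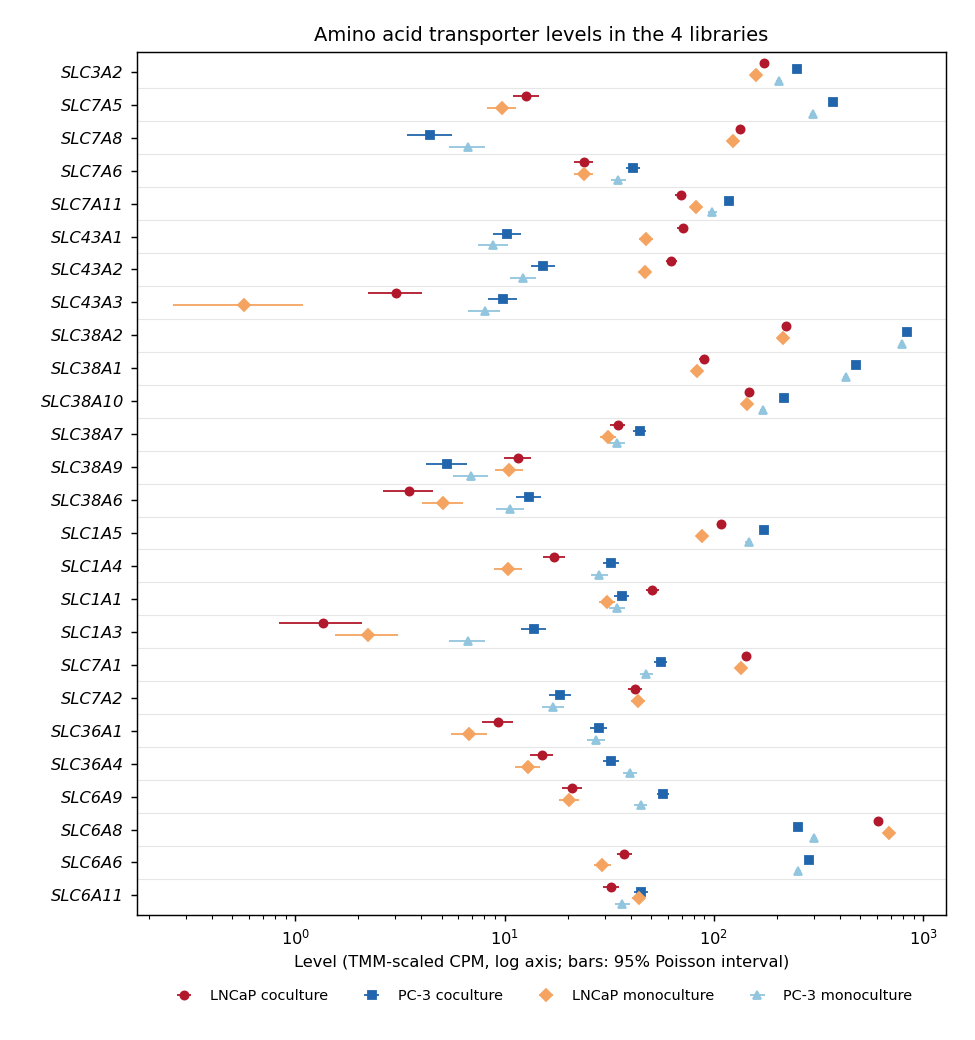
Level of each of the 26 transporters described in full (rows) in each library, as scaled CPM on a log axis, with bars for the 95% Poisson interval of the count. The LNCaP and PC-3 symbols lie far apart for SLC7A5, SLC7A8, SLC43A1, SLC38A1, SLC38A2 and SLC6A6, and coculture and monoculture of 1 line lie close together in most rows.

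In the plot of levels, symbols of different lines are apart in more rows than symbols of coculture and monoculture. Between the lines, 7 of 30 measured members were at least 2-fold higher in the LNCaP coculture than in the PC-3 coculture and 12 were at least 2-fold lower, where 20.7% of all measured genes were higher and 23.6% lower. Measured means at least 1 CPM in 1 of the 2 libraries. In the monocultures, 6 of 29 were at least 2-fold higher in LNCaP and 14 lower, where 22.1% of all measured genes were higher and 23.6% lower. At 1.5-fold, 7 members were higher and 17 lower in the cocultures, beside 31% and 32.1% of all measured genes, and 7 higher and 15 lower in the monocultures, beside 32.3% and 31.4%. The median log2 fold of the members, LNCaP over PC-3, was -0.77 in cocultures and -0.75 in monocultures, and 0.01 and 0.04 over all measured genes. A log2 fold above 0 was found in 9 of 30 members in the cocultures, and in 8 of 29 in the monocultures. Of all measured genes, 50.2% were above 0 in the cocultures and 51.3% in the monocultures. The 2 comparisons use separate libraries but the same 2 lines, so they are not independent samples of a line difference.

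Among members with counts in every library, those farthest apart between the lines were light chains of SLC3A2, and they ran in opposite directions. SLC7A5, which imports leucine and other large neutral amino acids, was at 12.7 CPM in the LNCaP coculture against 372 CPM in the PC-3 coculture, and at 9.69 CPM in the LNCaP monoculture against 296 CPM in the PC-3 monoculture. Both LNCaP libraries were far below both PC-3 libraries, by 29.3-fold in cocultures (25.4 to 33.9) and 30.5-fold in monocultures (26.0 to 36.1). SLC7A8, which carries large and small neutral amino acids, ran the other way. It had 133 CPM in the LNCaP coculture against 4.40 CPM in the PC-3 coculture, and was at 124 CPM in the LNCaP monoculture against 6.64 CPM in the PC-3 monoculture. It was higher in LNCaP by 30.1-fold in cocultures (23.7 to 38.9) and 18.6-fold in monocultures (15.3 to 22.9). The shared heavy chain differed far less. SLC3A2 was at 174 CPM in the LNCaP coculture against 248 CPM in the PC-3 coculture, and at 159 CPM in the LNCaP monoculture against 204 CPM in the PC-3 monoculture, 1.43-fold and 1.29-fold lower in LNCaP. The 2 other light chains at a clear level differed less. SLC7A6, which exchanges basic for neutral amino acids, was at 23.9 CPM in the LNCaP coculture against 41.1 CPM in the PC-3 coculture, and at 23.8 CPM in the LNCaP monoculture against 35.0 CPM in the PC-3 monoculture. SLC7A11 (xCT), which imports cystine for glutathione in exchange for glutamate, was at 69.6 CPM in the LNCaP coculture against 118 CPM in the PC-3 coculture, and at 81.6 CPM in the LNCaP monoculture against 98.0 CPM in the PC-3 monoculture. Both were lower in LNCaP by less than 2-fold. SLC7A7 had 5 counts in the LNCaP coculture, 5 in the PC-3 coculture, 2 in the LNCaP monoculture and 10 in the PC-3 monoculture. The kit does not mark strand, so reads of SLC7A5, SLC7A6 and SLC7A11 cannot be told from those of genes that overlap their exons on the other strand, and SLC7A5 has the pseudogenes SLC7A5P1 and SLC7A5P2. SLC7A8 has no such overlap.

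As a share of the light chains per kilobase of exon, SLC7A8 made up 67.1% in the LNCaP coculture against 0.929% in the PC-3 coculture, with 64.7% in the LNCaP monoculture against 1.73% in the PC-3 monoculture. SLC7A5 made up 6.58% in the LNCaP coculture against 80.4% in the PC-3 coculture, with 5.19% in the LNCaP monoculture against 78.8% in the PC-3 monoculture. So in each line 1 gene gave most of the set, and a different one. SLC7A11 gave 17.1% in the LNCaP coculture against 12.1% in the PC-3 coculture, with 20.8% in the LNCaP monoculture against 12.4% in the PC-3 monoculture. Summed, the light chains reached 42.1 CPM per kilobase in the LNCaP coculture against 100.8 in the PC-3 coculture, with 40.7 in the LNCaP monoculture against 81.8 in the PC-3 monoculture. The sum was 0.642 of the SLC3A2 level in the LNCaP coculture against 1.08 in the PC-3 coculture, with 0.679 in the LNCaP monoculture against 1.06 in the PC-3 monoculture. Per kilobase of coding sequence these ratios were 1.65 in the LNCaP coculture, 2.82 in the PC-3 coculture, 1.81 in the LNCaP monoculture and 2.78 in the PC-3 monoculture. Their size rests on the length used, and LNCaP was below PC-3 with either length. On coding length SLC7A8 was still the first of the set in LNCaP, at 51.2% in the coculture and 47.5% in the monoculture, and SLC7A5 the first in PC-3, at 69.4% in the coculture and 67.9% in the monoculture.

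**Figure D2:**
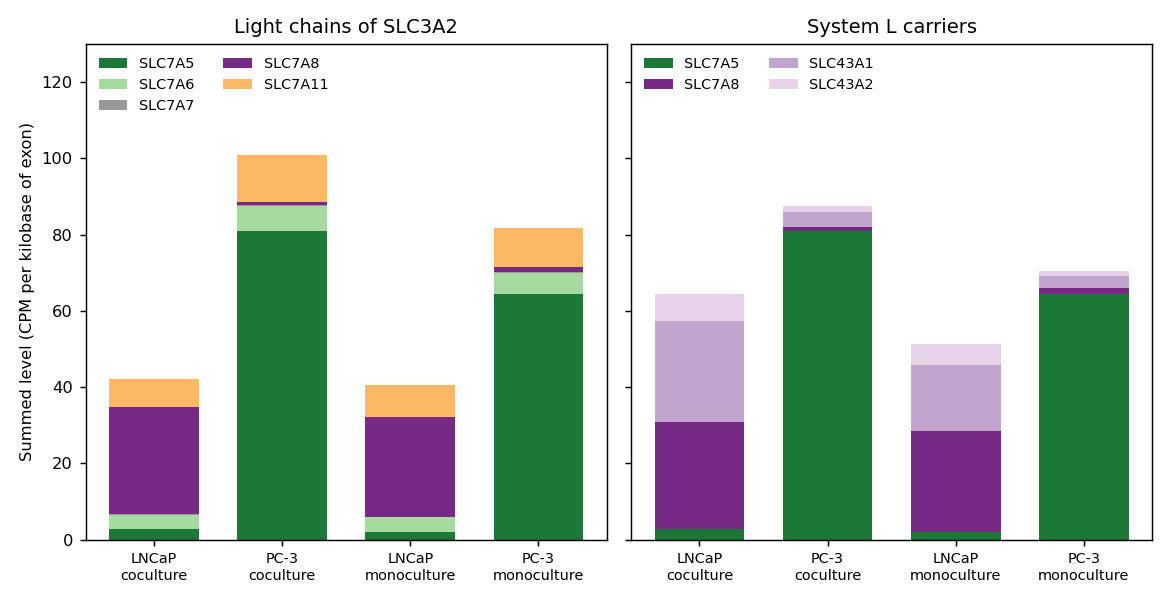
Summed level of the light chains of SLC3A2 (left) and of the system L carriers (right) in each library, in CPM per kilobase of exon, with each gene as a stacked part of the bar. SLC7A5 fills most of both PC-3 bars in either panel, and SLC7A8, with SLC43A1 in the right panel, fills most of both LNCaP bars.

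System L is the sodium-independent uptake of leucine-like amino acids, carried by SLC7A5, SLC7A8 and the facilitators SLC43A1 and SLC43A2. SLC43A1 (LAT3), a leucine facilitator earlier named for its expression in prostate cancer, was at 70.9 CPM in the LNCaP coculture against 10.3 CPM in the PC-3 coculture, and at 47.4 CPM in the LNCaP monoculture against 8.83 CPM in the PC-3 monoculture. It was 6.90-fold higher in LNCaP in cocultures (5.85 to 8.20) and 5.36-fold in monocultures (4.47 to 6.47). SLC43A2 (LAT4), its close relative, was at 62.5 CPM in the LNCaP coculture against 15.2 CPM in the PC-3 coculture, and at 46.6 CPM in the LNCaP monoculture against 12.3 CPM in the PC-3 monoculture, 4.10-fold and 3.80-fold higher. The stacked bars show the 4 carriers together. In LNCaP, SLC7A8 made up 43.9% of their level per kilobase of exon in the coculture and 51.3% in the monoculture, and SLC43A1 40.8% in the coculture and 34.2% in the monoculture. In PC-3, SLC7A5 alone made up 92.6% in the coculture and 91.4% in the monoculture. The summed level was 64.4 CPM per kilobase in the LNCaP coculture against 87.6 in the PC-3 coculture, with 51.3 in the LNCaP monoculture against 70.6 in the PC-3 monoculture. On exon length the sum thus differed between the lines by less than 1.5-fold while each carrier in it differed by more than 3-fold. Per kilobase of coding sequence the sum was 159 CPM in the LNCaP coculture against 261.5 in the PC-3 coculture, with 129.2 in the LNCaP monoculture against 210.3 in the PC-3 monoculture, a difference of more than 1.5-fold. On coding length SLC43A1 gave 26.6% in the LNCaP coculture and 21.9% in the LNCaP monoculture. The third SLC43 gene, SLC43A3, which carries purine bases and not amino acids, was at 3.03 CPM in the LNCaP coculture against 9.83 CPM in the PC-3 coculture, and at 0.570 CPM in the LNCaP monoculture against 8.02 CPM in the PC-3 monoculture. SLC43A1 and SLC43A3 lie on the same stretch of chromosome 11, at chr11:57484534-57515702 and chr11:57406954-57427580 on GRCh38.p14, and differed between the lines in opposite directions.

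Of the SLC38 carriers, 3 of 7 measured were at least 2-fold lower and 1 higher in the LNCaP coculture than in the PC-3 coculture, and 3 of 6 lower and 0 higher in the monocultures, beside the shares of all measured genes given above. The sodium-coupled alanine and glutamine importers SLC38A1 and SLC38A2 were among those lower in LNCaP. SLC38A2 was at 222 CPM in the LNCaP coculture against 840.3 CPM in the PC-3 coculture, and at 215 CPM in the LNCaP monoculture against 791 CPM in the PC-3 monoculture. SLC38A1, the other main system A carrier and an importer of glutamine, was at 89.5 CPM in the LNCaP coculture against 477 CPM in the PC-3 coculture, and at 82.6 CPM in the LNCaP monoculture against 425 CPM in the PC-3 monoculture. Both PC-3 libraries were above both LNCaP libraries, with SLC38A2 lower in LNCaP by 3.78-fold in cocultures (3.65 to 3.93) and 3.68-fold in monocultures (3.54 to 3.82). For SLC38A1 the difference was 5.33-fold in cocultures (5.04 to 5.65) and 5.15-fold in monocultures (4.85 to 5.47). SLC38A4, the third system A gene, had 9 counts in the LNCaP coculture, 3 in the PC-3 coculture, 1 in the LNCaP monoculture and 5 in the PC-3 monoculture. The 3 genes lie on the same stretch of chromosome 12, at chr12:46183063-46269043 for SLC38A1, chr12:46358188-46372773 for SLC38A2 and chr12:46764761-46832431 for SLC38A4. SLC38A6, a relative of little known function, was at 3.48 CPM in the LNCaP coculture against 13.0 CPM in the PC-3 coculture, and at 5.07 CPM in the LNCaP monoculture against 10.7 CPM in the PC-3 monoculture. It was more than 2-fold lower in LNCaP both times, though its exons overlap those of TRMT5 on the other strand and of AL160236.2 on the same strand. SLC38A9, the lysosomal arginine sensor of mTORC1, was the measured SLC38 gene with a fold in the other direction in both comparisons. It was at 11.5 CPM in the LNCaP coculture against 5.30 CPM in the PC-3 coculture, and at 10.5 CPM in the LNCaP monoculture against 6.89 CPM in the PC-3 monoculture, 2.18-fold (1.67 to 2.86) and 1.53-fold (1.19 to 1.96) higher in LNCaP. SLC38A7, a lysosomal glutamine exporter, was at 34.7 CPM in the LNCaP coculture against 44.1 CPM in the PC-3 coculture, and at 31.1 CPM in the LNCaP monoculture against 34.4 CPM in the PC-3 monoculture. SLC38A10 was at 146 CPM in the LNCaP coculture against 216 CPM in the PC-3 coculture, and at 144 CPM in the LNCaP monoculture against 172 CPM in the PC-3 monoculture. These last pairs differed by less than 1.5-fold.

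Among the SLC1 carriers, SLC1A5 (ASCT2), the main glutamine exchanger of many cancer cells, was at 108 CPM in the LNCaP coculture against 173 CPM in the PC-3 coculture, and at 87.5 CPM in the LNCaP monoculture against 147 CPM in the PC-3 monoculture. SLC1A4 (ASCT1), which exchanges alanine, serine and cysteine, was at 17.2 CPM in the LNCaP coculture against 32.1 CPM in the PC-3 coculture, and at 10.4 CPM in the LNCaP monoculture against 28.3 CPM in the PC-3 monoculture. Both were lower in LNCaP, SLC1A4 by 1.87-fold in cocultures (1.60 to 2.17) and 2.72-fold in monocultures (2.27 to 3.27). The glutamate carriers did not share a direction. SLC1A1 (EAAT3) was at 50.8 CPM in the LNCaP coculture against 36.3 CPM in the PC-3 coculture, and at 30.8 CPM in the LNCaP monoculture against 34.4 CPM in the PC-3 monoculture. SLC1A3 (EAAT1) was at 1.35 CPM in the LNCaP coculture against 13.8 CPM in the PC-3 coculture, and at 2.22 CPM in the LNCaP monoculture against 6.64 CPM in the PC-3 monoculture. SLC1A3 was lower in LNCaP by 10.2-fold in cocultures (6.49 to 16.8) and 3.00-fold in monocultures (2.03 to 4.53). SLC1A6 had 0 counts in both LNCaP libraries against 18 counts in each PC-3 library, at least 5.94-fold lower in LNCaP against a floor of 3 counts per library.

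The cationic carriers were higher in LNCaP. SLC7A1 (CAT1), the main importer of arginine and lysine, was at 142 CPM in the LNCaP coculture against 55.5 CPM in the PC-3 coculture, and at 135 CPM in the LNCaP monoculture against 47.5 CPM in the PC-3 monoculture. SLC7A2 (CAT2) was at 41.8 CPM in the LNCaP coculture against 18.4 CPM in the PC-3 coculture, and at 43.3 CPM in the LNCaP monoculture against 17.1 CPM in the PC-3 monoculture. SLC7A1 was higher by 2.56-fold in cocultures (2.37 to 2.78) and 2.84-fold in monocultures (2.61 to 3.09), SLC7A2 by 2.28-fold (1.98 to 2.62) and 2.53-fold (2.19 to 2.92). The proton-coupled SLC36 carriers, which work at acidic membranes such as the lysosome, ran the other way. SLC36A1 was at 9.28 CPM in the LNCaP coculture against 28.2 CPM in the PC-3 coculture, and at 6.78 CPM in the LNCaP monoculture against 27.3 CPM in the PC-3 monoculture. SLC36A4 was at 15.0 CPM in the LNCaP coculture against 32.1 CPM in the PC-3 coculture, and at 12.9 CPM in the LNCaP monoculture against 39.7 CPM in the PC-3 monoculture. Both were at least 2-fold lower in LNCaP each time.

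The SLC6 family holds carriers of amino acids and of amino acid derivatives. SLC6A8 was at 606 CPM in the LNCaP coculture against 252 CPM in the PC-3 coculture, and at 686 CPM in the LNCaP monoculture against 300.4 CPM in the PC-3 monoculture, 2.40-fold (2.31 to 2.49) and 2.29-fold (2.21 to 2.36) higher. SLC6A6, the taurine carrier, was at 37.3 CPM in the LNCaP coculture against 284 CPM in the PC-3 coculture, and at 29.3 CPM in the LNCaP monoculture against 253 CPM in the PC-3 monoculture. That was 7.61-fold lower in LNCaP in cocultures (6.97 to 8.31) and 8.62-fold in monocultures (7.82 to 9.51), though SLC6A6 overlaps exons of GRIP2 on the other strand and has a named pseudogene. SLC6A9 (GlyT1), a glycine carrier, was at 20.9 CPM in the LNCaP coculture against 57.0 CPM in the PC-3 coculture, and at 20.4 CPM in the LNCaP monoculture against 44.7 CPM in the PC-3 monoculture. SLC6A11 (GAT3), known as a GABA carrier of brain, was at 32.2 CPM in the LNCaP coculture against 44.7 CPM in the PC-3 coculture, and at 43.6 CPM in the LNCaP monoculture against 36.5 CPM in the PC-3 monoculture. Of the 4, SLC6A6 and SLC6A9 were at least 2-fold lower in LNCaP both times and SLC6A11 was not called. The exons of SLC6A9 overlap those of CCDC24 on the other strand. SLC6A14, a broad carrier of neutral and basic amino acids, had 0 counts in both LNCaP libraries against 45 counts in the PC-3 coculture, with 41 in the PC-3 monoculture. Set at the floor of 3 counts, a count of 0 stands for up to 0.193 CPM in the LNCaP coculture and 0.189 CPM in the LNCaP monoculture, so SLC6A14 was at least 14.8-fold lower in the LNCaP coculture and at least 13.5-fold lower in the LNCaP monoculture.

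**Figure D3:**
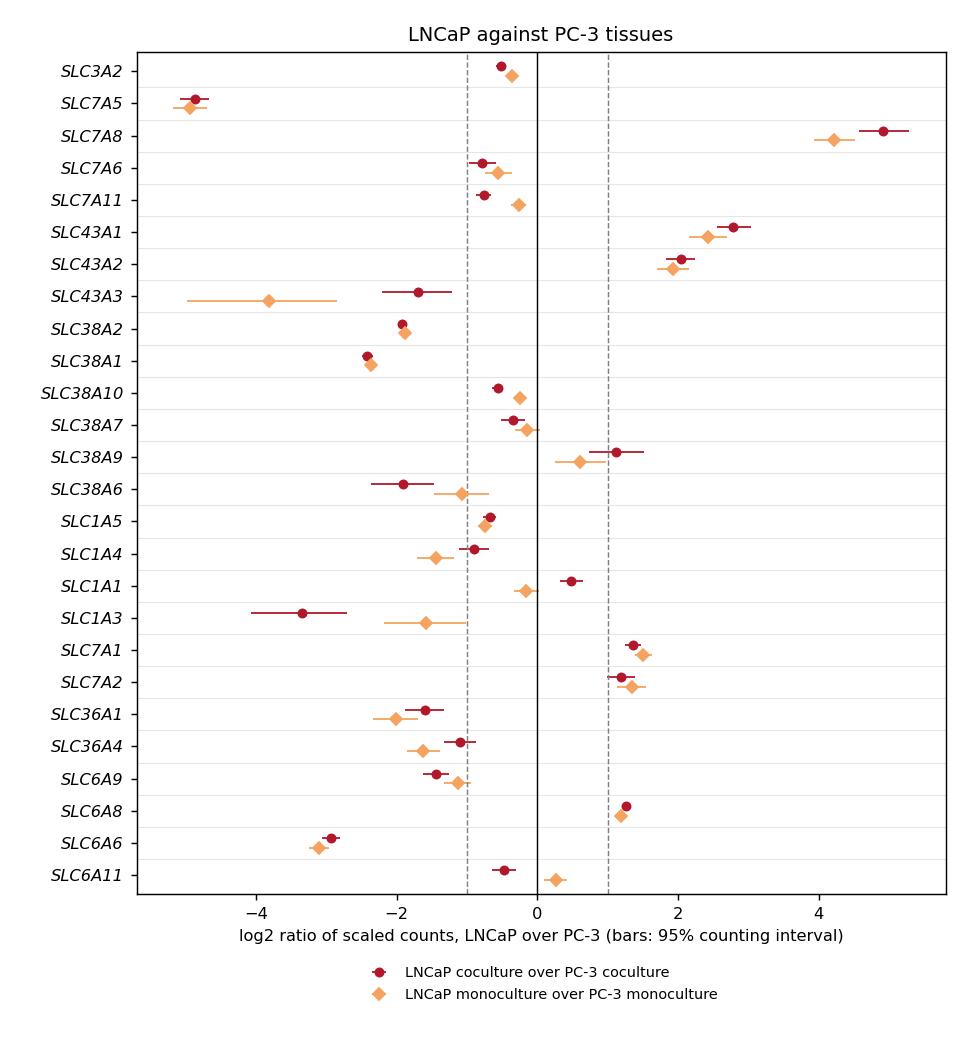
log2 ratio of scaled counts, LNCaP over PC-3, for the 26 transporters described in full, with circles for cocultures, diamonds for monocultures and bars for the 95% counting interval. Dashed lines mark 2-fold. SLC7A8, SLC43A1, SLC43A2, SLC7A1, SLC7A2 and SLC6A8 lie right of the dashed line in both comparisons, and SLC7A5 lies farthest left.

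With fibroblasts in the gel, most transporters differed little from the monoculture, as the plot of coculture ratios shows. In LNCaP, 2 of 27 measured members reached 2-fold higher in the coculture and 0 reached 2-fold lower, where 4.56% of all measured genes were higher and 3.03% lower. At 1.5-fold, 4 were higher and 1 lower, beside 7.88% and 8.95% of all measured genes. In PC-3, 3 of 31 reached 2-fold higher and 1 reached 2-fold lower, where 2.22% were higher and 1.01% lower, and the same counts at 1.5-fold stood beside 4.65% and 3.86%. The median log2 fold of the members was 0.13 in LNCaP and 0.22 in PC-3, against 0.00 over all measured genes in both. In LNCaP 21 of 27 members had a log2 fold above 0, beside 50.1% of all measured genes. In PC-3 these were 26 of 31, beside 50.8%. Counting intervals lay above 1 for 13 members in LNCaP and 17 in PC-3, below 1 for 4 in each, and included 1 for 10 in each. Over all measured genes they lay above 1 for 27.8% and below 1 for 25.8% in LNCaP, and above 1 for 21.5% and below 1 for 20.4% in PC-3. The cocultures hold fibroblast RNA. Of the fibroblast markers measured, 14 of 14 exceeded their LNCaP monoculture level by 2-fold or more in the LNCaP coculture, and 12 of 14 exceeded their PC-3 monoculture level by as much in the PC-3 coculture. Their part in the transporter differences was not tested. In such mixed tissue, fewer cells of a type and less RNA per cell cannot be told apart.

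Both members at least 2-fold higher in the LNCaP coculture were low genes. SLC43A3 had 47 counts in the LNCaP coculture against 9 in the LNCaP monoculture, 5.32-fold higher (2.58 to 12.3), and 154 counts in the PC-3 coculture against 128 in the PC-3 monoculture. Its exons overlap those of AP000781.2 on the same strand. SLC6A15, a carrier of branched-chain amino acids and proline, had 22 counts in the LNCaP coculture against 0 in the LNCaP monoculture, at least 7.47-fold higher. It had 21 counts in the PC-3 coculture against 7 in the PC-3 monoculture, 3.06-fold higher (1.25 to 8.51). In PC-3, SLC38A11 had 16 counts in the coculture against 0 in the monoculture, at least 5.43-fold higher. In LNCaP it had 7 counts in the coculture against 0 in the monoculture. SLC1A2 (EAAT2), a glutamate carrier under 1 CPM in every library, had 12 counts in the LNCaP coculture against 3 in the LNCaP monoculture, and 14 in the PC-3 coculture against 2 in the PC-3 monoculture. SLC6A15, SLC38A11 and SLC1A2, picked out after their values were seen, had lower counts in both monocultures than in both cocultures. So did SLC1A1, with 788 counts in the LNCaP coculture and 569 in the PC-3 coculture. It had 487 in the LNCaP monoculture and 549 in the PC-3 monoculture. Which cells gave these reads was not tested. SLC1A3 was the member with over 100 counts in both PC-3 libraries that passed 2-fold in the PC-3 coculture, at 2.08-fold higher (1.64 to 2.64). Its LNCaP counts were 21 in the coculture and 35 in the monoculture. SLC3A1, the heavy chain of the kidney cystine carrier, had 12 counts in the PC-3 coculture against 38 in the PC-3 monoculture, 3.11-fold lower (1.59 to 6.53), and its exons overlap those of PREPL on the other strand.

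Below 2-fold, among genes with over 100 counts in both LNCaP libraries, the positive differences past 1.3-fold were in SLC1, SLC43, SLC36 and SLC7 genes. SLC1A4 was 1.66-fold higher in the LNCaP coculture than in the monoculture (1.36 to 2.03), SLC1A1 1.65-fold (1.47 to 1.85), SLC43A1 1.50-fold (1.36 to 1.64) and SLC43A2 1.34-fold (1.22 to 1.48). SLC36A1 was 1.37-fold higher there (1.06 to 1.78) and SLC7A5 1.31-fold (1.06 to 1.63). Below these came SLC6A6 at 1.27-fold (1.12 to 1.44) and SLC1A5 at 1.23-fold (1.15 to 1.33). In PC-3 the first 4 of these genes were at 1.14-fold for SLC1A4 (0.999 to 1.29), 1.06-fold for SLC1A1 (0.937 to 1.19), 1.16-fold for SLC43A1 (0.922 to 1.47) and 1.24-fold for SLC43A2 (1.02 to 1.51). The LNCaP and androgen-regulated markers were also mostly above their monoculture level in the LNCaP coculture, 7 of 9 against 50.1% of all measured genes. Their median log2 fold was 0.33. Their part in the SLC43 and SLC1 values was not tested. The PC-3 coculture had 1.26-fold more SLC7A5 (1.21 to 1.31), 1.21-fold more SLC3A2 (1.16 to 1.27) and 1.26-fold more SLC38A10 (1.20 to 1.33) than the PC-3 monoculture. In LNCaP, SLC3A2 was 1.09-fold higher in the coculture (1.04 to 1.16) and SLC38A10 1.02-fold (0.958 to 1.08). SLC7A5 and SLC3A2 thus had intervals above 1 in both lines, as did SLC1A5, SLC6A6, SLC43A2 and SLC38A1. SLC6A8 was lower in both cocultures, at 0.882 of the monoculture count in LNCaP (0.858 to 0.907) and 0.840 in PC-3 (0.805 to 0.876). SLC36A4 was at 0.808 of the monoculture count in PC-3 (0.717 to 0.910) and at 1.16-fold in LNCaP (0.959 to 1.41).

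The lines were also compared for the coculture ratio itself. Of 27 members with a ratio in both lines, 14 had a counting interval of the difference in log2 folds that left out 0, as did 42% of all genes with such a ratio. The log2 fold of SLC43A3 was higher in LNCaP by 1.89 (0.89 to 2.89), and that of SLC1A1 by 0.64 (0.41 to 0.87). The difference was -1.70 for SLC1A3 (-2.52 to -0.88) and -0.31 for SLC38A10 (-0.42 to -0.20), whose log2 folds were lower in LNCaP. In 3 members, SLC7A8, SLC7A11 and SLC6A11, the 2 lines had opposite signs with both intervals off 1, as in 8.26% of all genes. These are differences between single libraries, and no tissue replicate stands behind them.

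**Figure D4:**
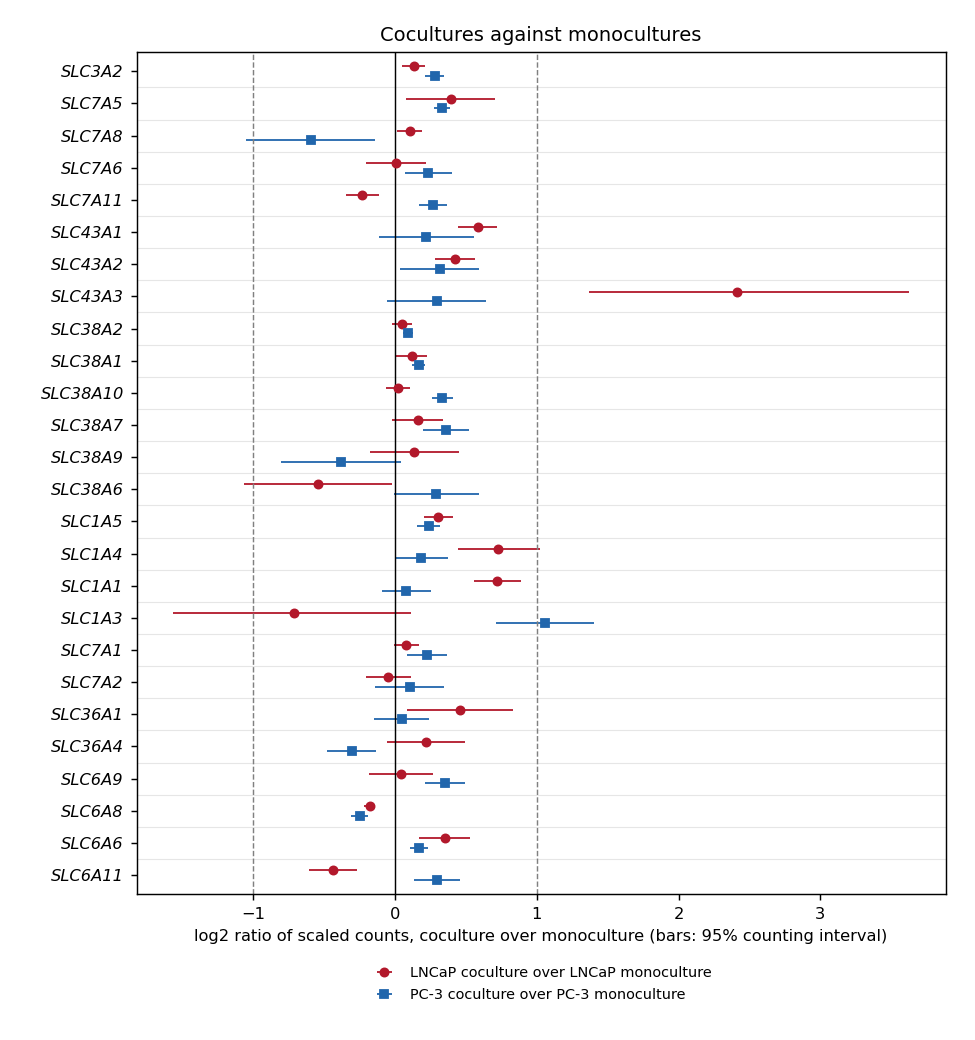
log2 ratio of scaled counts, coculture over monoculture, for the 26 transporters described in full, with circles for LNCaP, squares for PC-3 and bars for the 95% counting interval. Dashed lines mark 2-fold. Most points lie within 0.5 of 0, SLC43A3 in LNCaP lies farthest right at 5.32-fold and SLC1A3 in PC-3 is just past the dashed line.

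The 18 members not described in full were SLC1A2, SLC1A6, SLC1A7, SLC38A3, SLC38A4, SLC38A5, SLC38A11, SLC3A1, SLC6A4, SLC6A12, SLC6A14, SLC6A15, SLC6A16, SLC6A17, SLC6A20, SLC7A7, SLC7A9 and SLC7A13. The 13 under 1 CPM everywhere include the kidney and gut carriers SLC7A9 and SLC6A20, the serotonin carrier SLC6A4, the betaine carrier SLC6A12 and the glutamine carriers SLC38A3 and SLC38A5. The highest count among the 13 was 14, that of SLC1A2 in the PC-3 coculture. With counts this low, their values are given without a call. Exons of 15 of the 44 members overlap another gene on the other strand. Of the members described in full these are SLC1A5, SLC38A6, SLC38A10, SLC6A6, SLC6A9, SLC7A5, SLC7A6 and SLC7A11.

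Genes that act with the transporters were read from lists. In amino acid shortage, ATF4 raises transporters together with biosynthetic and stress genes. Of 27 measured ATF4 targets outside the family, 10 were at least 2-fold higher and 4 lower in the LNCaP coculture than in the PC-3 coculture, with a median log2 fold of 0.57, and 11 higher and 4 lower in the monocultures, with a median of 0.63. Of all measured genes, 20.7% were higher and 23.6% lower in the cocultures and 22.1% higher and 23.6% lower in the monocultures. These shares also stand behind the line comparisons of the lists that follow. The gene with the largest fold was CBS, of cysteine synthesis, with 1740 counts in the LNCaP coculture against 54 in the PC-3 coculture, while it had 2187 in the LNCaP monoculture against 143 in the PC-3 monoculture. STC2, a secreted stress protein, was lower in LNCaP, with 2778 counts in the LNCaP coculture against 10389 in the PC-3 coculture. Between coculture and monoculture, 0 of 27 were called in LNCaP (median -0.20, 4 above 0). In PC-3, 0 of 27 were higher and 1, CBS, was lower (median -0.10). Calls were few over all measured genes too, with 4.56% higher and 3.03% lower in LNCaP and 2.22% and 1.01% in PC-3. In LNCaP 50.1% of all measured genes were above 0.

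Downstream of uptake lie the enzymes of glutamine, glutamate and proline. Among 24 with a value, 7 reached 2-fold higher and 1 lower in the LNCaP coculture than in the PC-3 coculture (median 0.44), with 6 higher and 2 lower in the monocultures (median 0.45). ARG2, which splits arginine, had 1625 counts in the LNCaP coculture against 233 in the PC-3 coculture. GLUD1, which feeds glutamate into the citric acid cycle, had 3669 counts in the LNCaP coculture against 1020 in the PC-3 coculture. OAT, of ornithine and proline metabolism, was lower, with 394 counts in the LNCaP coculture against 1509 in the PC-3 coculture. Of 37 measured genes of lysosomal amino acid sensing by mTORC1, 6 were higher and 3 lower in the cocultures (median 0.13) and 8 higher and 2 lower in the monocultures (median 0.29), LNCaP over PC-3. SESN3, a member of the sestrin family, had 3839 counts in the LNCaP coculture against 195 in the PC-3 coculture, and RRAGD, a Rag GTPase, 1067 counts in the LNCaP coculture against 55 in the PC-3 coculture. MITF, a transcription factor that mTORC1 regulates at the lysosome, went the other way, with 90 counts in the LNCaP coculture against 987 in the PC-3 coculture.

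Between coculture and monoculture these lists had few calls, as had all measured genes (4.56% higher and 3.03% lower in LNCaP, 2.22% and 1.01% in PC-3). The glutamine list had 1 of 24 higher in LNCaP (median 0.09), BCAT1, an aminotransferase of branched-chain amino acids with 54 counts in the coculture against 6 in the monoculture, and 0 of 23 in PC-3 (median 0.02). No gene of the mTORC1 list was called in LNCaP (median -0.09) or PC-3 (median -0.03), of 37 measured. Of 20 cytosolic aminoacyl-tRNA synthetases, which charge the imported amino acids, 0 were called in either line. The log2 fold was above 0 for 18 of 20 in LNCaP (median 0.21) and 18 of 20 in PC-3 (median 0.11). Of all measured genes, 50.1% in LNCaP and 50.8% in PC-3 were above 0, with a median of 0.00 in both.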

How the data were processed

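Per the labels' protocols, RNA from QIAshredder and RNeasy preparation went into TruSeq RNA v2 libraries, a kit that does not mark strand. The authors deposited 1 table of estimated counts per gene symbol, with 1 column for each of the 4 libraries and no scaling to a common total. FastQC, STAR, Partek and the build hg38 are named per the submitters' processing notes, and their roles, versions and the gene annotation are not given in the sources used here. Of the deposited values, 33.7% to 34.1% per library were not whole, and all were rounded to whole counts. Totals were 15520243 to 15865690 counts, and 0 sample columns were left unmapped.

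Counts were scaled with TMM factors over all genes (edgeR 4.0.16, R 4.3.3) and given as CPM. With 1 library per group no test was run. A log2 fold has a prior count of 2. A fold is the ratio of scaled counts with an exact conditional binomial 95% interval, and a level has an exact Poisson interval. Intervals and floors cover counting error only, since PCR copies of a molecule are not told apart here. A gene counted as measured when it reached 1 CPM in either library of a comparison, and called at a 2-fold difference by its log2 fold. A gene at 0 in 1 library was set against a floor of 3 counts per library. The scripts (Python 3.11.15, numpy 2.4.6, pandas 2.3.3, scipy 1.17.1) were tested on simulated data.

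Exon lengths from GENCODE v29 matched 17082 of 17791 genes (96.0%) and all 44 members. Positions and promoter windows are RefSeq, GRCh38.p14. Members with at least 20 CPM in a library, or at least 100 counts in the higher library and a 2-fold difference in a comparison, are described in full. From each gene list up to 4 members with the largest folds and at least 100 counts in the higher library could be named. Genes of the related lists that were called between coculture and monoculture, and some markers, are also named whatever their count. The members, the lists of related genes and the markers of fibroblasts, LNCaP and androgen regulation, epithelium, PC-3, endothelium and blood were chosen with earlier results of these data known. The sets of light chains and system L carriers, the promoters printed and the use of coding length were chosen after the values were seen. Amino acid transporters of these families outside the table, such as SLC7A10 and SLC6A19, were not analysed here. The comparison of aminoacyl-tRNA synthetases between the lines is not reported here. Alternatives were plain CPM, DESeq2 1.42.0 size factors, upper-quartile factors, no filter, a 5 CPM filter, a prior count of 0.5, counts not rounded, a call at 1.5-fold and a correction for transcript length.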

Additional observations from a re-analysis of the deposited data

Results flagged for a closer look

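A set of 3 carriers differed from their monocultures in opposite directions in the 2 lines, with counting intervals off 1 in both. The differences were not tested, since each rests on 4 single libraries. SLC7A8 was 1.07-fold higher in the LNCaP coculture (1.01 to 1.14), with 2059 counts against 1953 in the LNCaP monoculture, and at 0.663 of the monoculture count in the PC-3 coculture (0.482 to 0.906), with 69 counts against 106 in the PC-3 monoculture. Its log2 fold was higher in LNCaP by 0.68.

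SLC7A11 had 1079 counts in the LNCaP coculture against 1289 in the LNCaP monoculture, and 1850 in the PC-3 coculture against 1564 in the PC-3 monoculture. The difference in log2 folds, LNCaP minus PC-3, was -0.50. Its exons overlap those of SLC7A11-AS1 on the other strand. For SLC6A11, with 500 counts in the LNCaP coculture against 689 in the LNCaP monoculture, and 701 in the PC-3 coculture against 582 in the PC-3 monoculture, the difference was -0.73.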

How the results depend on the processing

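No paired analysis was possible because each group has 1 library and no replicate numbers, and for the same reason no replicate could be left out. Between coculture and monoculture, low genes set most of the counts of members called. For the LNCaP coculture over the monoculture, 2 members were at least 2-fold higher and 0 lower; without the low-level filter these were 5 and 3, with a 5 CPM filter 0 were higher, and at 1.5-fold 4 were higher and 1 lower. For PC-3, 3 were higher and 1 lower. Without the filter 7 were higher, and with 5 CPM 1 was higher and 0 lower. The shares of all measured genes moved with the filter too. In LNCaP they were 7.55% higher and 4.42% lower without it, and 2.04% and 1.31% with 5 CPM. In PC-3, 5.22% were higher without it, and 0.724% were higher and 0.175% lower with 5 CPM. The shares at 1.5-fold are given above. For the LNCaP over the PC-3 monoculture, 6 were higher, and 11 without the filter, beside 22.1% and 22.4% of all measured genes. The median log2 fold of the members, -0.75, was -0.55 without the filter and -0.46 with 5 CPM. The other counts and medians stayed within 1.5 times, or within the counting interval, under every alternative run. Of 104 log2 folds of the members described in full, 0 changed call under any of these 6 settings: plain CPM, DESeq2 factors, upper-quartile factors, prior count 0.5, counts not rounded, transcript length trend removed. The sign changed for 1 with upper-quartile factors and for 2 with the length trend removed. Under each of these settings SLC7A8 dropped out of the members with opposite directions, leaving 2. Levels per kilobase of coding sequence, an alternative added after seeing the data, are given beside those per kilobase of exon. With 1 library per group, no spread between libraries could be set beside any value.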

Other observations

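Genes of NRF2 and glutathione synthesis form the pathway that SLC7A11 supplies with cysteine. Over the whole table, 20.7% of measured genes reached 2-fold higher and 23.6% reached 2-fold lower in the LNCaP coculture than in the PC-3 coculture, and 22.1% higher and 23.6% lower in the monocultures. Among 27 with a value, 3 reached 2-fold higher and 10 reached 2-fold lower in the LNCaP coculture than in the PC-3 coculture (median log2 fold -0.33), and of 26, 2 were higher and 12 lower in the monocultures (median -0.64). ABCC3, an efflux pump, had 28 counts in the LNCaP coculture against 2972 in the PC-3 coculture, with 0 in the LNCaP monoculture against 2627 in the PC-3 monoculture. GPX2, a glutathione peroxidase, had 3 counts in the LNCaP coculture against 370 in the PC-3 coculture. NQO1, a quinone reductase, was 1.62-fold higher in the LNCaP coculture than in the LNCaP monoculture (1.48 to 1.77), where 2 of 24, ABCC3 and AKR1C1, were called higher and 0 lower (median 0.14). Between the PC-3 coculture and monoculture 0 of 27 were called (median -0.06). Of all measured genes, 4.56% were called higher and 3.03% lower between the LNCaP coculture and monoculture, and 2.22% and 1.01% in PC-3.

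Carriers of amino acids from other families were also read, beside the same shares of all genes. Among 14 with a value, 2 reached 2-fold higher and 3 reached 2-fold lower in the LNCaP coculture than in the PC-3 coculture (median -0.52), and 2 higher and 6 lower in the monocultures (median -0.48). SLC16A10, a facilitator of aromatic amino acids, had 210 counts in the LNCaP coculture against 3 in the PC-3 coculture, with 257 in the LNCaP monoculture against 4 in the PC-3 monoculture, 70.7-fold (23.9 to 345.7) and 65.0-fold (25.1 to 240.2) higher in LNCaP. It thus stood on the same side as SLC7A8, SLC43A1 and SLC43A2, with SLC7A5 on the other. SLC15A3, a lysosomal carrier of peptides and histidine, had 23 counts in the LNCaP coculture against 174 in the PC-3 coculture, with 3 in the LNCaP monoculture against 159 in the PC-3 monoculture. Between coculture and monoculture 1 of 13, SLC15A3, was higher and 1, SLC15A2, lower in LNCaP (median 0.20), and 0 of 13 were called in PC-3 (median 0.02). Beside these stood 4.56% higher and 3.03% lower of all measured genes in LNCaP, and 2.22% and 1.01% in PC-3.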
